A study of Mus musculus with 32 samples.

Results

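The Hox genes are the mouse genes whose symbol is Hox, a cluster letter from a to d and a number. All 39 of them were found on the array by matching each probe's identifier to the RefSeq gene table, out of 20659 genes with a named probe. The Hoxa cluster on chromosome 6 gave 11 genes, the Hoxb cluster on chromosome 11 gave 10, and the Hoxc cluster on chromosome 15 and the Hoxd cluster on chromosome 2 gave 9 each. Each gene was represented by 1 probe, the one with the highest mean over all arrays where there were several. RNA from C57Bl/6 mouse samples, which the labels call preadipocytes throughout, was hybridised to 32 one-colour Agilent arrays in 8 groups of 4. In culture, all labelled room temperature, these were Pparg knockdown, Pparg control, Gyk knockdown and Gyk control. In mice they were Pparg KnockOut under cold exposure, Pparg control under cold exposure, Pparg KnockOut at room temperature and Pparg control at room temperature. Pparg encodes the nuclear receptor PPARgamma, which is needed to form and maintain fat cells, and Gyk is glycerol kinase, whose current symbol is Gk. The labels do not give the fat depot, the age of the mice, the temperature or length of the cold, how the knockdown or knockout was made, which cells lack Pparg or whether samples within a group are different cultures or animals. The spread between them may be technical, and p-values measure no more than that spread.

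Hox genes encode homeodomain transcription factors that give cells their position along the head to tail axis of the embryo. Within a cluster the genes lie in the order of their numbers, and low numbers are switched on earlier and nearer the head than high ones. Adult fibroblasts and fat precursors keep much of the pattern of the place they came from, so that fat depots differ in the Hox genes they express. Polycomb proteins keep them silent where they are not used, Trithorax proteins keep them active, and PBX and MEIS proteins of the TALE homeodomain class bind DNA together with Hox proteins.

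Values are log2 of the scanner's processed signal minus the 75th percentile of the array, so 1 unit is a doubling and 0 is the level that 75 percent of spots do not exceed. A gene was tested if 4 or more arrays in the comparison had it well above background by the scanner software's own call. It is said to have risen or fallen if limma's adjusted p (Benjamini-Hochberg, across every gene tested) was below 0.05. Signals of different probes are not comparable as levels, so each gene is compared with itself across groups.

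The 75th percentile signal ranged from 141.3 to 806.3 between arrays, and the dimmest were arrays 3 and 4 of the Gyk knockdown at 141.3 and 245.5. Each experiment lay on a pair of slides scanned on 1 day, with both groups on each slide. Cold and room temperature, and culture and mouse, therefore cannot be told apart from slide and scan day. The knockdown arrays carried their labels in the probes of the targeted genes. Pparg had 4.10, 4.10, 4.38 and 4.36 in Pparg knockdown cultures, against 5.99, 5.97, 6.29 and 6.34 in their controls. Gk had -2.61, -3.0, -1.40 and -1.19 in Gyk knockdown cultures, against 0.40, 0.38, 0.22 and 0.39 in their controls. In mice the single named Pparg probe went against the labels. It had 7.50, 7.53, 7.44 and 7.37 in room temperature arrays labelled knockout, against 5.53, 5.26, 5.47 and 5.29 in room temperature controls. In the cold it had 7.97, 7.93, 8.06 and 7.90 in cold arrays labelled knockout, against 5.99, 6.41, 5.28 and 5.67 in cold controls. Which part of the gene was deleted is not given in the sources used here, so a probe outside that part would check nothing, and these arrays are named by their label throughout. The mature adipocyte markers, 6 of 6 on the array, summed to 680 to 739 in room temperature arrays labelled knockout and 1400 to 1710 in their controls, as multiples of the 75th percentile signal. In every group, preadipocytes by label, each of these 6 mature fat cell genes was above background on at least 1 array, and they summed to 303 or more on every array. Of 10 preadipocyte and fibroblast markers, Dpp4 was above background on no culture array. Skeletal muscle markers stood out on 4 mouse arrays. The summed signal of the 7 genes was 16.6 on array 4 of the cold group labelled knockout, 114 and 143 on arrays 1 and 2 of the cold controls and 15.8 on array 1 of the room temperature group labelled knockout. It was at most 1.89 on the other mouse arrays. Results in mice are given with and without these arrays where the count changed.

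Most of the Hox genes detected had middle numbers. By the well above background call, detected genes of the Hoxb and Hoxc clusters reached higher numbers in culture than in mice. Well above background on all 4 arrays were 26 genes in Pparg knockdown cultures, 26 in their controls, 20 in Gyk knockdown cultures and 24 in their controls. In mice the count was 20 in cold arrays labelled knockout, 20 in cold controls, 21 in room temperature arrays labelled knockout and 20 in room temperature controls. The 16 genes on all 32 arrays, each by the probe used, included Hoxa2, Hoxa3, Hoxa4, Hoxa6, Hoxa9, Hoxb2, Hoxb4, Hoxb6, Hoxb7, Hoxb8, Hoxc4, Hoxc5, Hoxc6, Hoxd4 and Hoxd8. At the other end, 10 genes were on no array: Hoxa11, Hoxb1, Hoxc11, Hoxc13, Hoxd1, Hoxd3, Hoxd10, Hoxd11, Hoxd12 and Hoxd13. With the scanner's looser call of a positive and significant spot, the counts on all 4 arrays were 31 in both groups of the Pparg culture experiment, 25 in Gyk knockdown cultures and 28 in their controls. In mice they were 23 in cold arrays labelled knockout and 22 in each of the other groups. By this looser call the highest Hoxc number on all 4 arrays was 12 in both culture controls and both mouse controls. It was also 12 in cold arrays labelled knockout, so the Hoxc contrast depended on the call. The highest Hoxb number was 13 in every culture group and 8 or 9 in the mouse groups.

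The highest number reached on all 4 arrays differed by cluster. In the Hoxa cluster it was Hoxa9 in 7 of the 8 groups and Hoxa10 in Pparg knockdown cultures. The second Hoxa9 probe was above background on 4 arrays of each Pparg culture group, 4 Gyk control and 3 Gyk knockdown arrays. In mice it was above background on 1 room temperature control, 2 cold controls and 0 arrays labelled knockout. Hoxa9 as the limit in mice therefore rests on 1 of its 2 probes. In the Hoxb cluster it was Hoxb9 in both knockdown cultures and Hoxb13 in both culture controls, against Hoxb8 in all 4 mouse groups. In the Hoxc cluster it was Hoxc12 in both groups of the Pparg culture experiment and Hoxc10 in both of the Gyk experiment, against Hoxc8 in 3 mouse groups and Hoxc6 in room temperature controls. Hoxc12 signal was not lower in all mice, at -4.38 to -4.20 in Pparg culture controls and -4.89 to -3.63 in cold controls. The lowest signal called well above background was -5.434 to -5.195 on those culture arrays and -4.825 to -4.524 on those mouse arrays. In the Hoxd cluster it was Hoxd9 in 3 culture groups and Hoxd8 in Gyk knockdown cultures, against Hoxd8 in every mouse group. Hoxb9 and Hoxc9 were on all 16 culture arrays and on none of the 16 mouse arrays. Hoxd9 was on 15 culture arrays and 1 mouse array, Hoxc10 on 16 and 3, Hoxb13 on 10 and 0, and Hoxa10 on 10 and 0.

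Some low-numbered genes were not detected, and some genes were detected on more mouse arrays than culture arrays. Hoxb1, Hoxd1 and Hoxd3 were above background on no array although higher-numbered neighbours were detected. Hoxb3 was on 2 of 16 culture arrays and 9 of 16 mouse arrays, Hoxa5 on 10 and 16, and Hoxa7 and Hoxb5 on 15 and 16 each. The second Hoxb3 probe was on no culture array, and in mice only on 3 room temperature arrays labelled knockout. Hoxc12 was on 8 culture arrays and 6 mouse arrays, and Hoxa13 on 3 and 3. Annotated spans overlap for Hoxa3 with Hoxa4, Hoxa5 and Hoxa6, and for the pairs Hoxb3 and Hoxb4, Hoxd3 and Hoxd4, and Hoxd10 and Hoxd11, so a probe could read a transcript that runs through a neighbour.

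**Figure D1:**
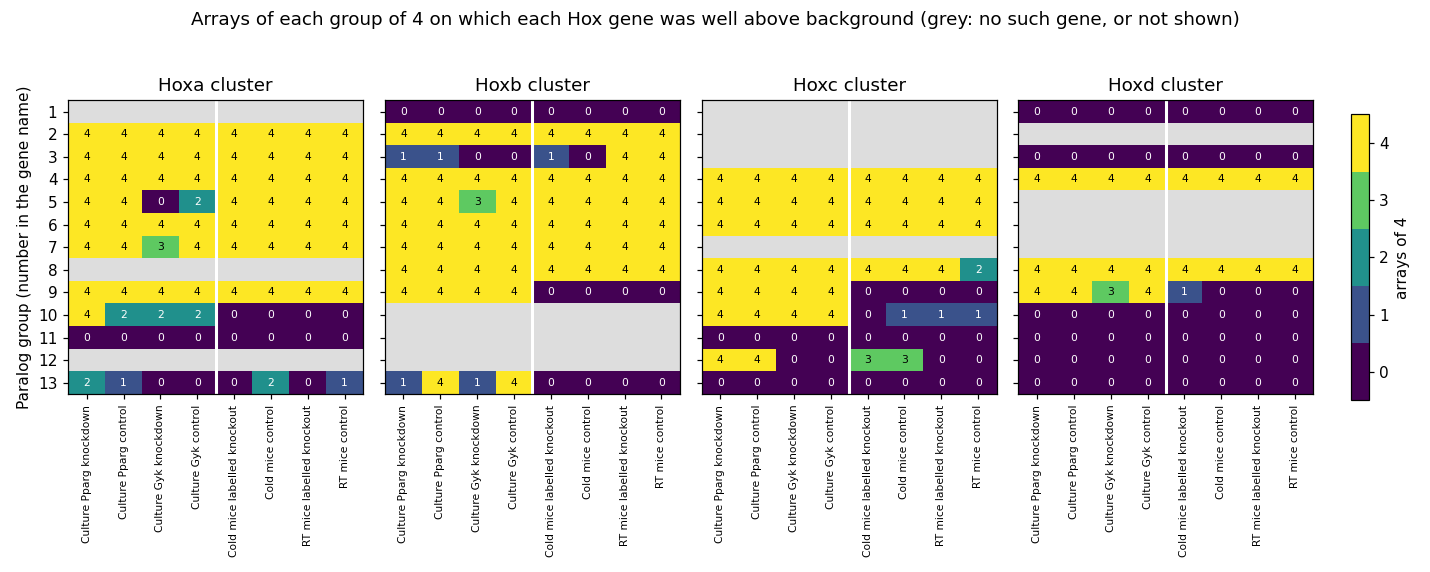
Number of arrays, of 4 per group, on which each Hox gene shown was well above background, by paralog group (rows, the number in the gene name) and group of samples (columns; culture left of the white line, mice right of it; RT is room temperature). In mice Hoxb9 and Hoxc9 are at 0 in every group, while both are at 4 in all 4 culture groups.

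Hoxd8 and Hoxd9 lie side by side on chromosome 2, and Hoxd8 was on all 16 mouse arrays while Hoxd9 was on 1. Their upstream sequences are shown for this contrast between neighbours, and that of Hoxc4 because it had the largest change of the Hox genes that passed in mice labelled knockout. They are the 250 bases before the annotated start, from RefSeq on GRCm38.p6, on which 22 of the 39 genes had an entry. Capitals mark 2 of the motifs searched on both strands, the nuclear receptor site AGGTCA, which reads TGACCT on the opposite strand, and the CCAAT box.
Hoxd8 chr2:74704365-74704614 plus strand: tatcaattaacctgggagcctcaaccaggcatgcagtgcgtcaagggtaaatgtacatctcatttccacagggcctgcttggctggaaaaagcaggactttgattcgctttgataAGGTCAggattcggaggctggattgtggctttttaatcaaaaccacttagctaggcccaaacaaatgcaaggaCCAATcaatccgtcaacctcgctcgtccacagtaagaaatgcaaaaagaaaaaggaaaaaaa
Hoxd9 chr2:74697513-74697762 plus strand: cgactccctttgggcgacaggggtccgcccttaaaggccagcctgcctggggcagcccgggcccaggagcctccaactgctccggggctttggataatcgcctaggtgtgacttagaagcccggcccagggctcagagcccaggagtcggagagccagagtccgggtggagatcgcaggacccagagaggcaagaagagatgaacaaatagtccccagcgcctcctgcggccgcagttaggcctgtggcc
Hoxc4 chr15:103034145-103034394 plus strand: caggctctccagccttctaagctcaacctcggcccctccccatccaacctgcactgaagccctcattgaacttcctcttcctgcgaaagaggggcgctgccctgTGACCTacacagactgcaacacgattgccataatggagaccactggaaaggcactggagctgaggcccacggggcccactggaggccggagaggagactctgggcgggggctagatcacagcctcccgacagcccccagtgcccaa
AGGTCA was present once before Hoxd8, once before Hoxc4 and not before Hoxd9. The same window held it in 6 of the table's 24 Hox promoters and in 14% of 32851 promoters of the table. CCAAT was present once before Hoxd8 only, and in 14 of the 24 Hox promoters and 33.8% of all promoters. The DR1 element bound by PPAR and RXR, in which AGGTCA is repeated with 1 base between the copies, the DR5 element of retinoic acid receptors, with 5 bases between them, the homeodomain core TAATTA and the TATA box TATAAA were in none of the 3 windows. Of all promoters, 0.0335% held DR1, 0.00913% DR5, 4.84% TAATTA and 12.4% TATAAA. CG occurred 6 times before Hoxd8, 13 times before Hoxd9 and 8 times before Hoxc4, against a median of 6.

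Set against control mice at room temperature, control cultures had higher signal for most of the Hox genes that could be tested and lower signal for some. Of 28 genes tested, 18 rose and 6 fell in culture. The 18 include Hoxa10, Hoxb9, Hoxb13, Hoxc9 and Hoxd9, which entered the test through culture arrays only. Their direction follows from that filter, and they are part of the count and of the median below. Over all 13620 genes tested 44.8% rose and 39% fell, 83.8% in either direction. The median difference was 1.06 over the Hox genes and 0.10 over all genes. In this and all later comparisons, fewer cells of a type and less RNA per cell cannot be told apart.

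Hoxc9 and Hoxb9 were above background on every culture array and no mouse array. Hoxc9, which marks the trunk in the embryo, had 1.55, 1.49, 1.64 and 1.81 in the control cultures of the Pparg experiment and 1.81, 1.70, 1.35 and 1.75 in those of the Gyk experiment, against -6.33, -6.94, -5.06 and -4.64 in control mice at room temperature. All 8 culture arrays were above all 4 mouse arrays, where it was not well above background. Since Hoxc9 and Hoxb9 are named here for that detection, their lack of overlap and their p-values restate it and add no separate support. It was at least 67.3-fold higher in culture, counted against the lowest signal the scanner called well above background on each mouse array (adjusted p = 1.54e-09 by limma). Hoxb9 had -0.52, -1.01, -0.53 and -0.42 in the control cultures of the Pparg experiment and -0.74, -0.98, -0.07 and -1.27 in those of the Gyk experiment, against -6.42, -6.92, -5.51 and -5.32 in control mice at room temperature. The arrays again did not overlap, and Hoxb9 was at least 13.4-fold higher in culture (adjusted p = 7.53e-09 by limma). Hoxb13, the last gene of its cluster, was at least 2.39-fold higher and Hoxd9 at least 1.99-fold higher, neither of them well above background on the mouse arrays compared. For Hoxd9, normexp background correction left 0.47 with an adjusted p of 0.113.

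Of 8 genes with numbers 6 to 8, all tested, 6 rose in culture and 1 fell. Hoxb6 had 1.0, 0.98, 1.55 and 1.49 in the control cultures of the Pparg experiment and 1.62, 1.70, 1.80 and 1.63 in those of the Gyk experiment, against -2.49, -2.04, -2.37 and -2.33 in control mice at room temperature. The difference was 3.78 (SE 0.13, adjusted p = 8.58e-11 by limma). Hoxb8 differed by 3.15 (SE 0.29), Hoxb7 by 2.17 (SE 0.15), Hoxd8 by 1.60 (SE 0.09) and Hoxc6 by 1.33 (SE 0.09), and none of these overlapped between culture and mouse. Hoxc8 and Hoxc10 also rose with no overlap (adjusted p = 5.76e-10 and 4.64e-07 by limma), but 2 and 1 of the 4 mouse arrays were above background, so no size is given. Without the culture arrays neither would have been tested, so their direction follows largely from that filter. Hoxa10 passed at 1.09, but 4 of 8 culture arrays and no mouse array measured it and the arrays overlapped, so no size is read from it. Its call ended with normexp (adjusted p = 0.355), with the slide as a random block (0.0968) and without room temperature control array 2 (0.0671).

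The 6 genes that fell in culture were Hoxa5, Hoxa7, Hoxa9, Hoxb3, Hoxc4 and Hoxc5. Hoxa7 had -1.59, -1.45, -2.74 and -2.48 in the control cultures of the Pparg experiment and -1.12, -1.52, -0.94 and -2.57 in those of the Gyk experiment, against 1.61, 1.40, 1.47 and 1.36 in control mice at room temperature. Every mouse array was above every culture array, with a difference of -3.26 (SE 0.31, adjusted p = 9.2e-07 by limma). Hoxa5, a regulator of lung and trunk patterning, differed by -3.39 (SE 0.30). It was above background on only 2 of 4 Gyk control arrays, so that size is uncertain. Hoxb3 fell (adjusted p = 5.58e-08 by limma) with 1 of 8 culture arrays above background, so its size is not given. It was tested only because the mouse arrays were detected, so its direction follows largely from that filter. Its second probe was not above background on any of these arrays. Hoxc4 had -1.32, -1.32, -1.57 and -1.52 in the control cultures of the Pparg experiment and -1.05, -2.30, -1.10 and -1.20 in those of the Gyk experiment, against 0.96, 1.21, 1.29 and 1.18 in control mice at room temperature, a difference of -2.58 (SE 0.20). Hoxc5 had -1.67, -1.69, -1.70 and -1.76 in the control cultures of the Pparg experiment and -1.74, -1.87, -1.90 and -1.73 in those of the Gyk experiment, against 1.22, 0.98, 1.04 and 1.06 in control mice at room temperature, a difference of -2.83 (SE 0.07, adjusted p = 6.54e-12 by limma). So Hoxc4 and Hoxc5 fell and their neighbours Hoxc6 and Hoxc8 rose. Hoxa9 passed at -1.43, but its second probe ran the other way, at -3.96 and -4.14 in the culture controls and -4.91 in the mice, so its direction is uncertain, and the mean of both probes did not pass (-0.29, adjusted p = 0.156).

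Among groups 1 to 3, where 5 of 8 genes were tested, 4 rose and 1 fell. Those that rose included Hoxb2 at 1.44 (SE 0.08), Hoxa2 at 0.91 and Hoxa3 at 0.55. Hoxa3 changed direction when cold control mice replaced those at room temperature, to -0.15, and neither the Hoxa2 nor the Hoxa3 difference passed when all culture groups were set against all mouse groups. Among groups 4 and 5, where all 7 were tested, Hoxd4 (2.50, SE 0.23) and Hoxa4 (0.81, SE 0.13) rose and Hoxa5, Hoxc4 and Hoxc5 fell. By cluster, 5 rose and 3 fell of 9 tested in Hoxa, 6 and 1 of 9 in Hoxb, 4 and 2 of 7 in Hoxc, and 3 and 0 of 3 in Hoxd.

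Markers of other cell types moved with this comparison. All 5 endothelial markers, all 4 macrophage markers and 4 of 4 tested Schwann cell markers fell in culture, where 39% of all genes fell and 83.8% passed in either direction. Other lists were split. Of 10 preadipocyte and fibroblast markers 3 rose and 7 fell, and of 4 mural cell markers 2 rose and 2 fell. Endothelial sums were 1.55 to 2.87 in the Gyk culture controls and 1.69 to 2.20 in the Pparg culture controls, against 14.2 to 19.9 in the mice, and Tek and Emcn were above background on no culture control array. The 6 brown adipocyte markers summed to 433 to 610 in culture controls, against 2780 to 3860 in the mice. Their part in the Hox differences was not tested.

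**Figure D2:**
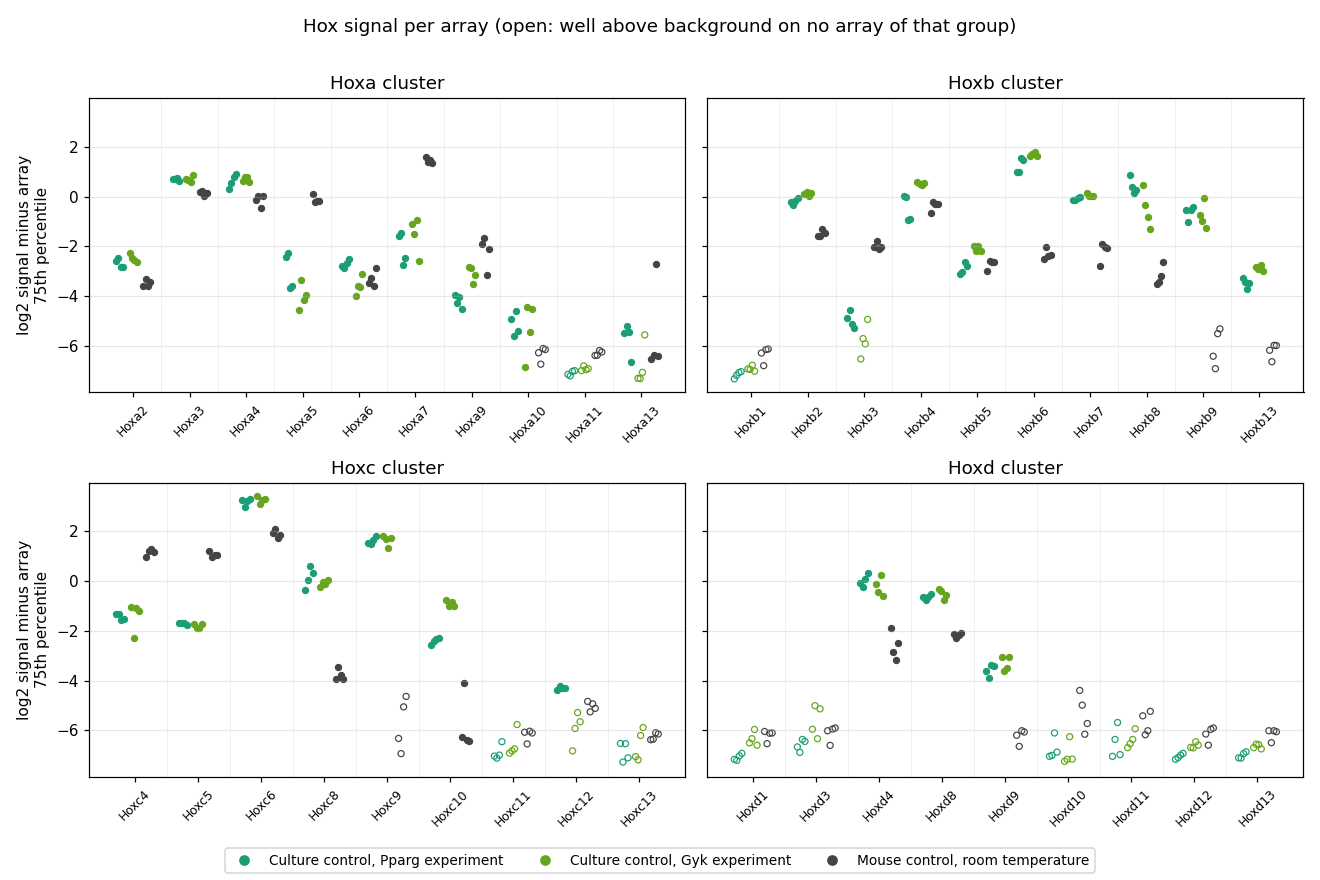
Signal of each Hox gene shown on every culture control and room temperature mouse control array, in log2 units relative to the array's 75th percentile, in paralog order along each cluster. Points are single arrays (4 per group), and open points mark groups in which no array was well above background. Hoxc9 lies at 1.35 to 1.81 in culture and at -6.94 to -4.64 in mice, while Hoxa7, Hoxc4 and Hoxc5 are higher in mice.

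The comparison of Pparg knockdown with control cultures asked how loss of this receptor acts on the cells' transcripts. Of 27 Hox genes tested, 7 rose and 4 fell, and all shifts but that of Hoxb13 were under 1 log2 unit in size. Over all 12842 genes tested 18.1% rose and 16% fell, 34.1% in either direction. The median difference was 0.05 over the Hox genes and 0.03 over all genes. The split of calls moved with the scaling, to 4 higher and 4 lower with the array median and to 2 higher and 3 lower with normexp background correction. With the replicate number as a block, 7406 genes passed in place of 4375, and 14 Hox genes in place of 11, 9 higher and 5 lower. Same-numbered arrays here also shared a slide.

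Hoxc6 and Hoxb7 rose most firmly. Hoxc6 had 4.05, 3.92, 3.74 and 3.99 in Pparg knockdown cultures, against 3.26, 3.0, 3.21 and 3.30 in their controls. All knockdown arrays were above all controls, and Hoxc6 rose by 0.73 (SE 0.10, adjusted p = 0.00066 by limma). Hoxb7 had 0.40, 0.41, 0.50 and 0.51 in Pparg knockdown cultures, against -0.14, -0.15, -0.04 and -0.02 in their controls. The groups did not overlap, and it rose by 0.55 (SE 0.07, adjusted p = 0.000507). Hoxa6 had -2.06, -2.20, -1.74 and -2.09 in Pparg knockdown cultures, against -2.80, -2.89, -2.67 and -2.49 in their controls, a rise of 0.69 (SE 0.13). Hoxb9 rose by 0.54, Hoxb5 by 0.45 and Hoxc4 by 0.45. Hoxa10 passed at 0.67, with 4 knockdown and 2 control arrays above background, and was -0.28 after normexp correction. Its call also ended without any one of the knockdown arrays or of control arrays 2 and 4, and that of Hoxb9 without knockdown array 2, 3 or 4 (adjusted p up to 0.0925 and 0.0645). Hoxa6, Hoxb5, Hoxb9 and Hoxc4 also lost their call with normexp, and Hoxb5 and Hoxb9 with median scaling.

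Hoxb13 was low on the knockdown arrays. It had -5.06, -5.07, -5.22 and -4.89 in Pparg knockdown cultures, against -3.28, -3.45, -3.71 and -3.48 in their controls. The knockdown arrays were all lower, and only 1 of the 4 was above background, against 4 of 4 controls (adjusted p = 1.47e-05 by limma), so the size of the fall is not given. It was tested only because the controls were detected, so its direction follows largely from that filter. It is 1 of the 4 genes counted as fallen. With normexp its adjusted p was 0.0581. Hoxa4 had -0.35, -0.27, 0.14 and -0.07 in Pparg knockdown cultures, against 0.30, 0.53, 0.80 and 0.91 in their controls, and fell by 0.77 (SE 0.16). Hoxb8 fell by 0.76 (SE 0.17) and Hoxd8 by 0.37 (SE 0.08), with no overlap between groups for either. Within a cluster the directions were mixed: Hoxb7 and Hoxb9 rose on either side of Hoxb8, which fell.

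In the same comparison markers of mature fat cells fell. All 6 mature adipocyte markers were lower, with summed signals of 303 to 403 in Pparg knockdown cultures against 862 to 1090 in their controls, and 5 of 9 preadipocyte and fibroblast markers rose. Of all genes 18.1% rose and 16% fell. Their part in the Hox changes was not tested.

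The Gyk knockdown comparison gave no Hox gene past the threshold. By limma 0 of 25 tested passed, and 4 had an unadjusted p below 0.05. Over all 12219 genes tested 8.76% passed, 4.65% higher and 4.11% lower. The median difference was -0.09 over the Hox genes and 0.02 over all genes. Knockdown arrays differed among themselves. Hoxa6 had -3.39, -3.28, -0.94 and -1.36 in Gyk knockdown cultures, against -4.00, -3.58, -3.62 and -3.10 in their controls, with knockdown arrays 3 and 4 above the controls and arrays 1 and 2 within their range. Hoxb13 had -3.92, -6.56, -4.66 and -3.67 in Gyk knockdown cultures, against -2.84, -2.92, -2.74 and -2.99 in their controls, every knockdown array below every control, a difference that did not pass. Without the dim arrays 3 and 4, 2 Hox genes passed, 1 higher and 1 lower.

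Set directly against each other, the Pparg and Gyk knockdown effects differed for 2 of 27 Hox genes tested, both more positive in the Pparg knockdown. Over all 13118 genes tested 6.29% were more positive and 6.14% more negative, 12.4% in either direction. With the percentile over detected probes 2 were more positive and 1 more negative. Hoxb7 differed by 0.75 (SE 0.15, adjusted p = 0.00433 by limma). In the Gyk experiment it had -0.13, 0.15, -0.44 and -0.18 in Gyk knockdown cultures, against 0.15, 0.02, 0.02 and 0.02 in their controls. Hoxc6 differed by 0.61 (SE 0.19, adjusted p = 0.0468). In the Gyk experiment it had 3.44, 3.67, 3.02 and 3.44 in Gyk knockdown cultures, against 3.42, 3.11, 3.28 and 3.29 in their controls, groups that overlapped. The Hoxc6 call ended with normexp (0.72, adjusted p = 0.0912), with the replicate block (adjusted p = 0.0631) and when any of 12 of the 16 arrays was left out, with adjusted p up to 0.0974.

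**Figure D3:**
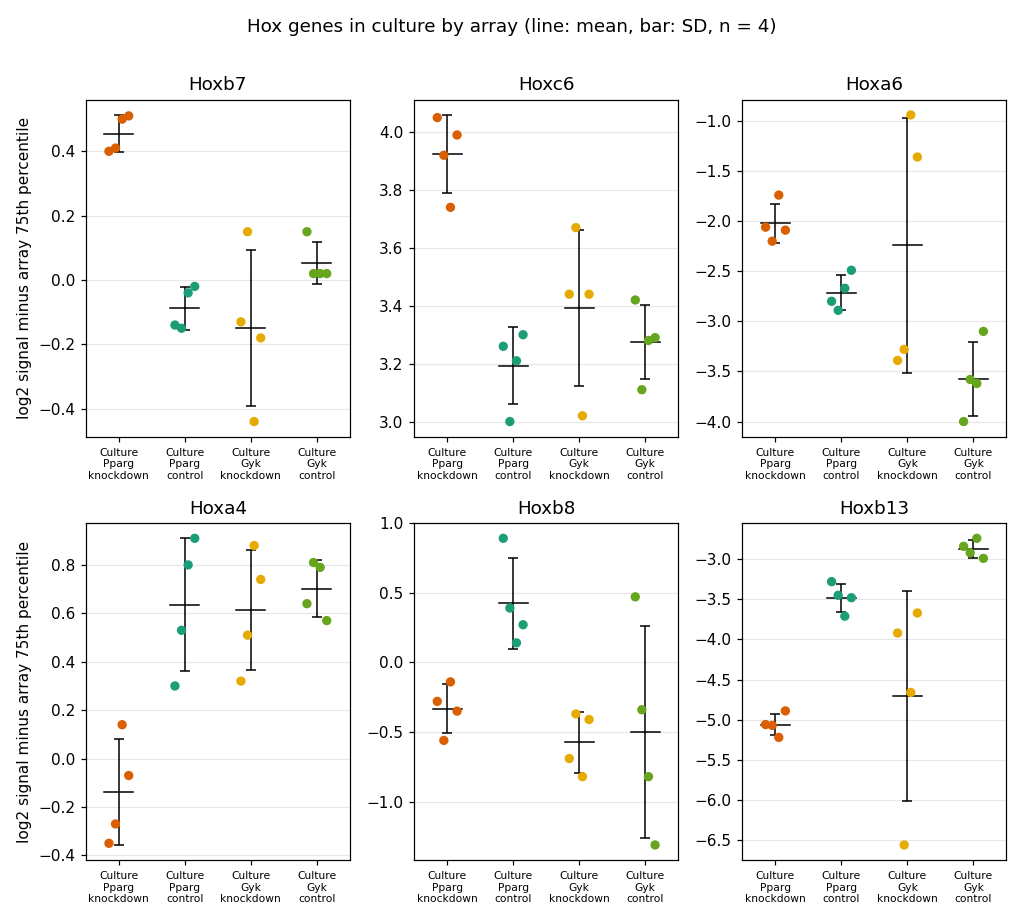
Values of 6 Hox genes on the 16 culture arrays, in log2 units relative to the array's 75th percentile, with each gene on its own axis. Points are arrays, lines means and bars SD (n = 4). Hoxb7 and Hoxc6 are higher and Hoxa4, Hoxb8 and Hoxb13 lower on all 4 Pparg knockdown arrays than on their 4 controls, while the Gyk knockdown arrays spread widely for Hoxa6 and Hoxb13.

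In mice labelled Pparg knockout Hoxc4 had the largest change of the Hox genes that passed. At room temperature 6 of 22 Hox genes tested rose and 1 fell. Over all 14064 genes tested 15.2% rose and 19.7% fell, 34.9% in either direction. In the cold 5 of 22 rose and 2 fell, against 15.9% and 22.4% of all genes, 38.3% in either direction. With the replicate block, which joined arrays that also shared a slide, 8 rose and 2 fell in the cold. With the slide as a block 10 rose and 2 fell. The share of all genes under these blocks is not given, so neither count is read as a result about Hox genes. Without a block, the share of Hox genes that passed was below that of all genes at both temperatures. The median difference was 0.22 over the Hox genes and -0.06 over all genes at room temperature, and 0.31 and -0.05 in the cold. Directions are those of the labels, which the Pparg probe went against.

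Hoxc4 rose at both temperatures. It had 3.16, 3.33, 3.11 and 3.22 in room temperature arrays labelled knockout, against 0.96, 1.21, 1.29 and 1.18 in room temperature controls. It had 3.12, 2.59, 3.83 and 3.31 in cold arrays labelled knockout, against 0.79, 0.68, 1.02 and 1.0 in cold controls. No array labelled knockout overlapped a control, and the difference was 2.05 (SE 0.19, adjusted p = 2.42e-06 by limma) at room temperature and 2.34 (SE 0.19, adjusted p = 1.05e-06) in the cold. Within the slides it was 2.07 and 2.02 at room temperature and 2.12 and 2.56 in the cold. In Pparg knockdown cultures the same gene rose by 0.45. The comparison of mice at room temperature and that of mice in the cold share no array. The comparisons of cold with room temperature and of culture with mouse reuse some of the same control arrays.

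Hoxc5, the next gene in number, had 1.65, 1.74, 1.41 and 1.67 in room temperature arrays labelled knockout, against 1.22, 0.98, 1.04 and 1.06 in room temperature controls, a rise of 0.54 (SE 0.11, adjusted p = 0.00173). It had 0.66, 0.38, 0.47 and 0.49 in cold arrays labelled knockout, against -0.48, -0.82, -0.56 and -0.36 in cold controls, a rise of 1.06 (SE 0.11, adjusted p = 8.81e-06). The arrays did not overlap at either temperature. The knockout effect on Hoxc5 was larger in the cold by 0.51 (SE 0.16, adjusted p = 0.0453), the one Hox gene of 22 tested whose effect differed between temperatures, against 6.11% of all genes more positive and 7.25% more negative, 13.4% in either direction. The split was 0 more positive and 1 more negative with median scaling, and 1 and 1 with quantile normalization. The Hoxc5 call ended with normexp (0.30, adjusted p = 0.295), with median scaling (0.35, adjusted p = 0.267), with the replicate block (adjusted p = 0.0533), without the 4 arrays with muscle signal (0.154), and when any of 14 of the 16 arrays was left out (up to 0.0895).

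Hoxc6 had 3.11, 2.76, 2.65 and 2.66 in room temperature arrays labelled knockout, against 1.94, 2.08, 1.73 and 1.86 in room temperature controls, a rise of 0.89 (SE 0.21, adjusted p = 0.0042) with no overlap. In the cold it had 2.12, 2.11, 2.86 and 2.57 in arrays labelled knockout, against 1.70, 1.56, 2.16 and 2.47 in controls, which overlapped and did not pass. Hoxa2, a regulator of hindbrain and branchial arch identity, had -2.46, -2.27, -2.08 and -2.62 in room temperature arrays labelled knockout, against -3.60, -3.30, -3.59 and -3.45 in room temperature controls, a rise of 1.13 (SE 0.34, adjusted p = 0.0183). With normexp it was 0.39 (adjusted p = 0.252). In the cold it rose by 1.44 (SE 0.34, adjusted p = 0.00389), which was 1.03 with an adjusted p of 0.109 without the arrays with muscle signal. At room temperature Hoxb2 rose by 0.70, and Hoxc8 by 0.72 with 4 arrays labelled knockout and 2 controls above background, and with normexp neither passed (0.48 and 0.13, adjusted p = 0.0689 and 0.824). In the cold Hoxa6 rose by 0.66 and Hoxb6 by 0.43, and Hoxa9 fell by 0.92. The Hoxb6 call ended with normexp (0.33, adjusted p = 0.167), with the replicate block (adjusted p = 0.0584), and when any of 7 of the 8 arrays was left out (up to 0.132). The Hoxa6 call ended with normexp (0.56, adjusted p = 0.0918) and without array 3 or 4 of either cold group (up to 0.0793), and that of Hoxa9 without array 3 or 4 labelled knockout (up to 0.0616) and at 0.00 with normexp. At room temperature the Hoxa2 call ended without array 3 labelled knockout (0.0508).

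Hoxd8 fell at both temperatures, by 0.41 at room temperature and 0.35 in the cold (SE 0.12 each). Under normexp neither passed, at -0.21 and 0.05, and with the percentile taken over probes detected on all arrays neither passed. Its call ended without array 2 labelled knockout at room temperature (adjusted p = 0.0514), and in the cold when any of 6 of the 8 arrays was left out (up to 0.0846). Of the genes that passed, Hoxa2, Hoxc4, Hoxc5 and Hoxd8 did so at both temperatures in the same direction and none in opposite directions. Without the 4 arrays with muscle signal the counts were 6 higher and 0 lower at room temperature, and 4 higher and 0 lower in the cold. The split at room temperature was 6 higher and 0 lower with median scaling, 7 and 0 with the percentile over detected probes, and 3 and 0 with normexp. In the cold it was 8 and 1 with the percentile over detected probes and 4 and 0 with normexp.

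Markers of other cells moved with the label. Summed Schwann cell and nerve markers, 5 of 5 above background, were 40.2 to 48.6 in room temperature arrays labelled knockout and 26.8 to 35.7 in their controls, and 73.5 to 80.6 in cold arrays labelled knockout and 21.5 to 32.7 in their controls. Of 5 endothelial markers 4 fell at room temperature, with sums of 10 to 12.3 in arrays labelled knockout and 14.2 to 19.9 in their controls. In the cold 0 of these 5 rose or fell. Of 6 brown adipocyte markers, 5 fell at room temperature, with sums of 1230 to 1490 in arrays labelled knockout and 2780 to 3860 in their controls, and 4 fell in the cold, with sums of 734 to 1510 in arrays labelled knockout and 2340 to 2520 in their controls. In the cold 8 of 10 preadipocyte and fibroblast markers and 4 of 4 macrophage markers rose, and 5 of 6 mature adipocyte markers fell. At room temperature 1 of 10 preadipocyte and fibroblast markers rose and 1 fell, and 0 of 4 macrophage markers passed. There 4 of 6 mature adipocyte markers fell. Their part in the Hox differences was not tested.

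**Figure D4:**
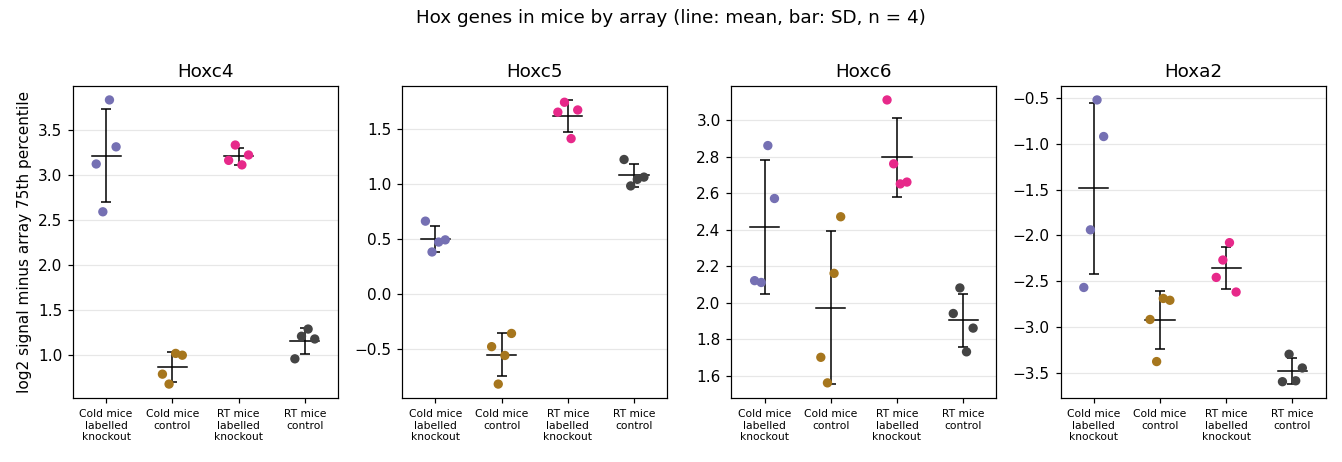
Hoxc4, Hoxc5, Hoxc6 and Hoxa2 on the 16 mouse arrays, in log2 units relative to the array's 75th percentile, with each gene on its own axis (RT is room temperature). Points are arrays, lines means and bars SD (n = 4). Hoxc4 lies at 2.59 to 3.83 on all 8 arrays labelled knockout and at 0.68 to 1.29 on all 8 controls.

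Cold exposure was set against room temperature in each genotype, with slide and scan day moving with temperature. In control mice 6 of 22 Hox genes tested rose and 4 fell, against 41.6% and 25.1% of all genes, 66.7% in either direction. In mice labelled knockout 7 rose and 5 fell, against 40.9% and 24.6% of all genes, 65.5% in either direction. The median difference was 0.15 over the Hox genes and 0.23 over all genes in controls, and 0.23 for both in mice labelled knockout. Genes that passed in both genotypes included Hoxb6, Hoxc12 and Hoxd4, which rose, while Hoxa5, Hoxa7, Hoxb3 and Hoxc5 fell, and no gene passed in opposite directions. Hoxc12 entered the test through cold arrays only, and Hoxb3 through room temperature arrays and 1 cold array. The direction of both follows at least largely from that filter, and both are part of these counts. Median scaling raised the median of all genes by 0.35 in controls and gave 10 higher and 4 lower. In mice labelled knockout the split was 7 higher and 2 lower with normexp. Without the 4 arrays with muscle signal 6 rose and 5 fell of 21 in controls, and 4 rose and 5 fell of 21 in mice labelled knockout, where Hoxa2, Hoxb5 and Hoxd8 no longer passed. Of 5 skeletal muscle markers tested, 4 rose in cold controls, with sums of 0.114 to 143 in cold controls, against 0.169 to 0.233 in controls at room temperature. Of 4 macrophage markers, 2 rose in controls, with sums of 13.9 to 17.8 in the cold against 6.97 to 12.1 at room temperature, and 3 rose in mice labelled knockout, with sums of 21.7 to 38.8 in the cold against 10.5 to 13.5 at room temperature. Of 5 endothelial markers, 3 fell and 1 rose in controls, with sums of 7.78 to 8.53 in the cold against 14.2 to 19.9 at room temperature. In mice labelled knockout 2 endothelial markers rose and 1 fell, and 0 of 5 skeletal muscle markers passed. Their part in the Hox differences was not tested.

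By the probe used, Hoxb3 fell out of detection in the cold. Only 1 of the 9 mouse arrays with it above background was cold, so its direction follows largely from the filter. The second probe was above background on 0 of 4 controls at either temperature, 3 of 4 room temperature arrays labelled knockout and 0 of 4 cold ones. The probe used had -5.06, -5.10, -4.10 and -4.69 in cold control mice, against -2.03, -1.80, -2.09 and -2.02 in control mice at room temperature. The arrays were far apart, and Hoxb3 was at least 5.99-fold lower in cold controls (adjusted p = 1.18e-07 by limma). That bound holds for the processing as reported, since the difference ranged from -2.96 to -0.65 over the alternatives, all of which kept the call. It had -4.29, -4.98, -3.85 and -4.57 in cold mice labelled knockout, against -1.61, -1.80, -1.60 and -1.33 in mice labelled knockout at room temperature, with 1 of 4 cold arrays above background (adjusted p = 8.92e-08). With normexp the difference in mice labelled knockout did not pass (-0.53, adjusted p = 0.0792). Hoxc5 fell by 1.63 (SE 0.11, adjusted p = 1.17e-08) in cold controls and by 1.12 (SE 0.11) in cold mice labelled knockout. Hoxa7 had -0.11, 0.04, 0.26 and 0.42 in cold control mice, against 1.61, 1.40, 1.47 and 1.36 in control mice at room temperature, and fell by 1.31 (SE 0.19), against a fall of 1.51 in mice labelled knockout. Hoxa5 fell by 1.56 (SE 0.33) in controls and by 1.08 (SE 0.33) in mice labelled knockout, where normexp gave -0.51 (adjusted p = 0.061). Hoxa9 fell by 1.21 in mice labelled knockout, where normexp gave -0.10.

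Hoxd4 and Hoxb6 rose. Hoxd4 had -1.43, -1.40, -1.54 and -0.78 in cold control mice, against -1.90, -2.87, -3.17 and -2.48 in control mice at room temperature. It had -1.79, -0.86, -0.29 and -1.27 in cold mice labelled knockout, against -3.18, -3.31, -3.27 and -3.26 in mice labelled knockout at room temperature. The groups did not overlap in either genotype, with rises of 1.32 (SE 0.30) in controls and 2.20 (SE 0.30, adjusted p = 1.41e-05) in mice labelled knockout. Hoxb6 rose by 1.21 (SE 0.16) in controls and 1.36 (SE 0.16) in mice labelled knockout. Hoxc12 was at least 1.40-fold higher in controls and at least 1.76-fold higher in mice labelled knockout, with 3 of 4 cold arrays above background in each. Since Hoxc12 entered the test through cold arrays only, its direction follows from that filter. With normexp Hoxc12 did not pass in controls (0.30, adjusted p = 0.521). In controls Hoxb2 rose by 0.80 and Hoxc8 by 0.81, with 2 of 4 room temperature arrays above background for Hoxc8 and 0.25 with normexp (adjusted p = 0.485). In mice labelled knockout Hoxa2 rose by 0.88, and Hoxb5 by 0.48 and Hoxd8 by 0.32, and the last pair did not pass with the slide as a random block (adjusted p = 0.0571 and 0.0603). The Hoxc12 call in controls ended without cold array 1, 2 or 4 or room temperature array 2 (up to 0.0597). In mice labelled knockout, leaving out single arrays ended the calls of Hoxa2 (5 of 8 arrays, up to 0.12), Hoxb5 (5 of 8, up to 0.068) and Hoxd8 (4 of 8, up to 0.109).

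Hoxa2, Hoxa3 and Hoxa5 were among the genes that differed between the slides of the cold experiment. Arrays 1 and 2 of each group lay on one slide and arrays 3 and 4 on the other. Hoxa5 had -1.39, -1.98, -0.01 and -0.42 in cold arrays labelled knockout and -1.99, -2.03, -1.27 and -1.40 in cold controls. Hoxa3 had 0.38, 1.09, 2.38 and 1.93 in cold arrays labelled knockout and 0.48, 0.11, 1.54 and 1.28 in cold controls, lower on arrays 1 and 2 than on arrays 3 and 4 in both groups. Hoxa2 had -2.57, -1.94, -0.52 and -0.92 in cold arrays labelled knockout, higher on arrays 3 and 4, and -2.92, -3.38, -2.69 and -2.71 in cold controls. What differs between the slides was not tested.

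**Figure D5:**
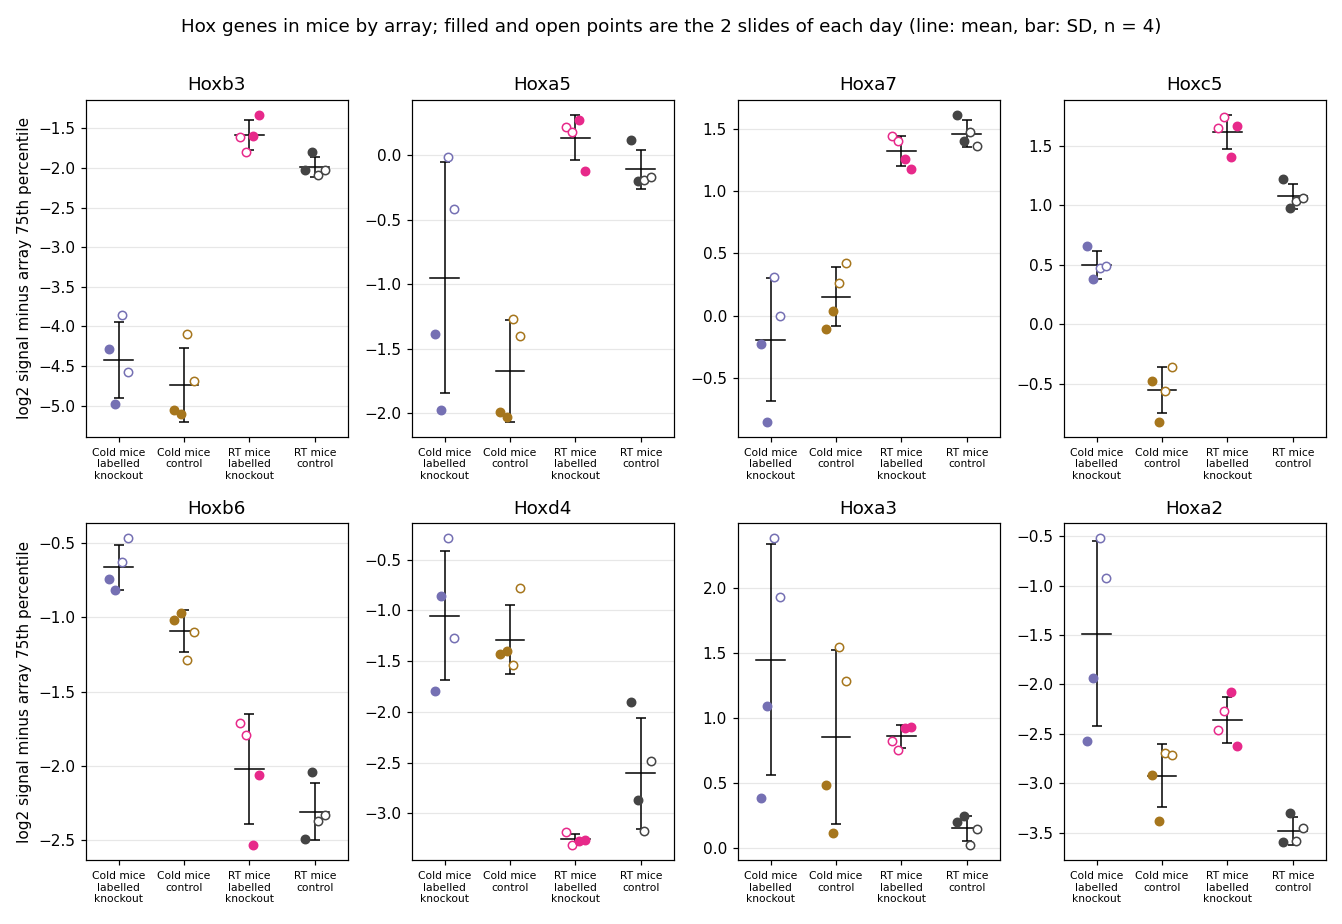
Values of 8 Hox genes on the 16 mouse arrays, in log2 units relative to the array's 75th percentile, with each gene on its own axis (RT is room temperature). Filled and open points are the arrays of the 2 slides of each scan day, lines are means and bars SD (n = 4). Hoxb3 is at -5.10 to -3.85 on the 8 cold arrays and at -2.09 to -1.33 on the 8 others, and Hoxa3 splits by slide in the cold.

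Genes that act with or on Hox genes were counted in the same way, and their shares are set beside those of all genes tested. In culture against mouse, a gene given with an "at least" fold entered the test through arrays of its brighter side only. Its direction follows from that filter, and it is part of the counts. Of the TALE cofactors tested in Pparg knockdown cultures, 5 of 9 rose and 1 fell, against 18.1% and 16% of all genes, with Pbx4 at -1.64 (SE 0.11), Meis3 at 0.61 (SE 0.14) and Pbx3 at 0.47 (SE 0.14). In Gyk knockdown cultures 2 of 9 rose, against 4.65% of all genes, Pknox2 by 1.11 and Meis2 by 1.0. Meis1, a partner of Hox and PBX proteins on DNA, rose with the knockout label at both temperatures, by 0.67 at room temperature and 0.64 in the cold (SE 0.12 each). With that label 1 rose and 1 fell of 8 at room temperature, against 15.2% and 19.7% of all genes, and 2 rose and 1 fell of 8 in the cold, against 15.9% and 22.4%. In cold against room temperature controls 3 rose and 5 fell of 8, against 41.6% and 25.1% of all genes, and in mice labelled knockout 1 rose and 4 fell, against 40.9% and 24.6%. In culture against mouse 4 rose and 4 fell of 9, against 44.8% and 39% of all genes, with Pknox2 higher (1 of 4 mouse arrays above background), Pbx4 at least 4.44-fold higher and Pbx3 at 1.55.

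Among Polycomb genes, which silence Hox genes, 14 of 19 tested rose and 5 fell in culture against mouse, where 44.8% and 39% of all genes did. Ezh2, the H3K27 methyltransferase, rose by 3.21 (SE 0.14), and the chromodomain gene Cbx6 by 2.91 (SE 0.08). Cbx8 was at least 5.74-fold lower and Ring1 at least 4.83-fold lower, both tested through mouse arrays only, which fixed their direction. In cold against room temperature controls 8 rose and 5 fell of 19, against 41.6% and 25.1% of all genes, with Cbx8 at least 4.02-fold lower. With the knockout label 2 rose and 1 fell of 19 at room temperature, and 3 rose and 2 fell in the cold, against 34.9% and 38.3% of all genes in either direction. Phf19, a PRC2 accessory factor, fell by 2.23 (SE 0.19) at room temperature and 1.73 (SE 0.19) in the cold. In Pparg knockdown cultures 4 of 17 rose and 3 fell, against 18.1% and 16% of all genes.

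All 9 Trithorax and H3K27 demethylase genes tested rose in culture against mouse, where 44.8% of all genes rose and 83.8% passed in either direction, with Kmt2b at 1.63, Kdm6b at 1.43, Rbbp5 at 1.27 and Ash2l at 1.22. In cold against room temperature controls 8 of 9 rose, against 41.6% of all genes and 66.7% in either direction, with Kmt2b at 1.70 (SE 0.11). With the knockout label 2 rose and 1 fell of 9 at room temperature, and 2 rose and 2 fell in the cold. By limma 0 of 9 passed in either knockdown, where 1 of 9 had an unadjusted p below 0.05 in each. Among retinoic acid and Cdx genes, which induce Hox genes in the embryo, Pparg knockdown raised Aldh1a1 by 1.31 (SE 0.13), which makes retinoic acid, and Rarg by 0.78 (SE 0.09), while Rarb fell by 1.06 (SE 0.08) and Cdx1 by 0.73 (SE 0.23). Over this list 3 rose and 2 fell of 11, against 18.1% and 16% of all genes. Aldh1a1 also rose in mice labelled knockout at room temperature, by 1.47 (SE 0.31), where 2 of 11 rose and 1 fell. In culture against mouse 4 rose and 4 fell of 11, 83.8% of all genes passing in either direction, with Cdx1 at least 1.36-fold higher, Rara at 1.79 and Aldh1a1 at -1.82. Cdx1 was tested there through culture arrays only, which fixed its direction.

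Of other genes known to mark body position or fat depots, 8 rose and 7 fell of 16 in culture against mouse, where 83.8% of all genes passed in either direction, with Tbx15 at 2.47 (3 of 4 mouse arrays above background), Irx5 at least 2.32-fold higher, Tbx5 at least 19.6-fold lower and Twist1 at -3.19. Irx5 was tested through culture arrays only and Tbx5 through mouse arrays only, which fixed their directions. With the knockout label 3 rose and 1 fell of 14 at each temperature, against 34.9% of all genes in either direction at room temperature and 38.3% in the cold. Tbx15 rose by 1.75 (SE 0.32) at room temperature and 1.46 (SE 0.32) in the cold, and Zic1, a brown fat marker gene, by 0.90 at room temperature and 1.5 in the cold (SE 0.22 each). In Pparg knockdown cultures 6 of 15 rose and 2 fell, against 18.1% and 16% of all genes, including Tbx15 at 0.54 and Irx3 at -0.88.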

How the data were processed

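Total RNA was measured on 32 one-colour Agilent arrays, 4 per group, grouped by the labels. The deposited values are spot intensity, per the file headers from Agilent Feature Extraction 10.7.3.1 with background subtracted and no scaling between arrays. The series' value table held the same numbers. The arrays' number and signal over background limit precision. From the processed signal, log2 minus the array's 75th percentile was computed after leaving out 1377 control spots and outlying spots, and no spot was saturated. Probe accessions were matched to the RefSeq gene table, which named 27234 of 39429 probes (69.1%), and 5476 genes had several probes. The brightest probe was used. Values were tested with limma 3.58.1 in R 4.3.3 (lmFit, eBayes). Each knockdown was fitted on its own pair of groups, the mouse comparisons on the 4 mouse groups together, the difference between knockdowns on the 4 culture groups, and culture against mouse on both culture controls, weighted equally, and the room temperature control mice. The script was tested on simulated data.

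A fold given as "at least" compares the brighter group with the higher of each dim array's lowest signal called well above background and the probe's own signal. It holds for the processing as reported only. In culture against mouse, alternatives gave log2 differences as low as 3.95 for Hoxc9 and 2.01 for Hoxb9, which are below their bounds. Values are given for detected Hox genes, with tests for those that passed, and for other lists up to 4 of the members with the largest change that passed. Results for some genes of these lists are not reported here. Members and lists were chosen with earlier results of these data known.

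Same-numbered arrays deviated together in the Pparg culture experiment (correlations 0.727 to 0.798) and the cold mice (0.117 to 0.486), over the limit of 0.1 in all 4 pairs of each. The limit was exceeded in 1 of 4 Gyk pairs and 0 of 4 room temperature mouse pairs. Same-numbered arrays shared a slide in all of these experiments but that of the room temperature mice. Pairing by number therefore cannot be told apart from slide, and the replicate block was run as an alternative only. Alternatives changed the background correction (normexp, offset 50), scaling, filter, probes, slide and replicate block, and left out arrays. The limit of 10 on summed muscle signal was chosen after seeing the data.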

Additional observations from a re-analysis of the deposited data

Results flagged for a closer look

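Single arrays stood apart from the other 3 of their group for 7 of 177 gene and group combinations by Dixon's test at its critical value for 4 samples. Chance flags about 1 in 20 groups, or 8.85 here. Hoxb4 was 0.37 on array 1 of the room temperature mice labelled knockout, against -0.01 to 0.01 on the others. Hoxb5 was -2.24 on array 4 of the same group, against -2.67 to -2.60. In room temperature control mice array 1 had Hoxa5 at 0.12, against -0.20 to -0.17, and Hoxb7 at -2.81, against -2.05 to -1.89. Hoxc8 was -3.21 on array 4 of the cold controls, against -2.89 to -2.85. In Gyk control cultures Hoxb7 was 0.15 on array 1, against 0.02 on the others, and Hoxc4 was -2.30 on array 2, against -1.20 to -1.05.

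Effects differed between settings for 3 Hox genes by the test of the difference itself in limma. The knockout effect on Hoxc5 was 0.51 larger in the cold than at room temperature. The Pparg knockdown effect exceeded the Gyk knockdown effect by 0.75 for Hoxb7 and by 0.61 for Hoxc6. The Hoxb7 difference kept its call under all 26 alternatives, with adjusted p from 0.000653 to 0.0476.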

How the results depend on the processing

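Of 1417 recomputed values for 71 single-gene results, 1277 kept direction and call, 135 lost the call and 5 changed sign, and 41 results kept both under every alternative. The sign changed with normexp for Hoxa10 in the Pparg knockdown (-0.28) and for Hoxa9 (0.00) and Hoxd8 (0.05) in cold mice labelled knockout, and in culture against mouse for Hoxa3 (-0.15 with cold mice and -0.10 with all groups). Normexp left 5 Hox genes in the Pparg knockdown, 3 for the knockout label at room temperature, 4 in the cold, 0 for its difference between temperatures and 1 for the difference between knockdowns. Over all genes it left 259 in the Gyk knockdown, 2399 for the label at room temperature, 610 for its difference and 865 for the knockdown difference. With no filter on dim probes 18 Hox genes passed for the label at room temperature, 0 for its difference and 1 for the knockdown difference, and 447 genes in the Gyk knockdown. That setting also tests Hox genes above background on no array. The share of all genes beside the 18 is not given, so the 18 are not read as a result about Hox genes. Median scaling left 1 Hox gene for the knockdown difference, and quantile normalization gave 2 for the label's difference. The slide as a block gave 7595 genes in the Pparg knockdown, 12 Hox genes for the label in the cold, and 2999 genes with 5 Hox genes for the knockdown difference. The replicate block gave 7406 genes in the Pparg knockdown, 111 in the Gyk knockdown, where numbers did not pair arrays, and 0 Hox genes for the label's difference. It ended the calls of Hoxb6 for the label in the cold, Hoxc5 for the label's difference and Hoxc6 for the knockdown difference, and no other call on a named Hox gene. Without arrays with muscle signal 4 Hox genes passed for the label in the cold and 0 for its difference. Without Gyk knockdown arrays 3 and 4, 2 Hox genes passed in the Gyk knockdown and 4 for the knockdown difference. The causes were not tested.

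Leaving out 1 array gave 298 (without Gyk control 3) to 1383 genes and 0 to 1 Hox genes in the Gyk knockdown, 3 (without cold knockout array 4) to 7 Hox genes for the label in the cold, 1231 (without room temperature knockout array 1) to 2187 genes and 0 to 1 Hox genes for its difference, and 1 to 4 Hox genes for the knockdown difference. Median scaling moved the median of all genes in culture against mouse by 0.90, and in cold against room temperature by 0.35 in controls. Of all genes called, the share that rose moved with scaling. In culture against mouse it was 75.3% with the median, against 53.5% as reported. In the Pparg knockdown it was 34.7% with the median and 64.4% with the percentile over detected probes, against 53.1%, and in the Gyk knockdown 36.6% and 63.4%, against 53.1%. For the label it was 55.9% under both at room temperature, against 43.6%, and 60.3% in the cold with the percentile over detected probes, against 41.6%. For its difference it was 24.8% with the median and 32.3% with normexp, against 45.8%, and in cold controls 76.5% with the median, against 62.3%. Genes not well above background have only bounds.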
